A study of Mus musculus with 12 samples.

Results

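Choroid plexus transcripts were abundant in 3 of 8 Fmr1 knockout cerebellum libraries and scarce in the other 5, and the genes that differed between these 3 and 5 libraries are described here. The 8 knockout libraries are 8 of 12 bulk RNA sequencing libraries of the series. All are labelled cerebellum, and the series design names crus 1, a lobule of the lateral hemisphere. The 4 saline knockout libraries came from Fmr1 knockout mice given saline (their titles say sham, their treatment label saline), and the 4 treated knockout libraries from Fmr1 knockout mice injected intraperitoneally with poly(I:C), a synthetic double-stranded RNA. The 4 FVB libraries, from FVB mice with intact Fmr1 given saline, served as an outside reference. Age, dose, time of tissue collection and the design of the knockout allele are not stated in the labels. Whether the samples of a group are different mice is not labelled, and p-values cover the spread among the samples only, which may be technical.

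The classes were chosen by a measured value, Ttr above or below 1000 CPM (counts of a gene scaled to the library's total). Saline knockout 2, treated knockout 2 and treated knockout 3 lay above it and are called the high-Ttr libraries. Saline knockout 1, 3 and 4 and treated knockout 1 and 4 lay below it and are called the low-Ttr libraries. Because the split rests on the data, differences between the 2 classes are given as a description without any test. The fitted log2 difference, high minus low with treatment as a covariate, carries the standard error (SE) of that fit, which does not allow for the choice of the classes. A gene is called higher or lower where this difference was at least 1 in size and all 3 high-Ttr libraries lay beyond all 5 low-Ttr libraries.

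The choroid plexus is a folded sheet of epithelium on a core of vessels and connective tissue inside the brain ventricles, and its epithelial cells produce cerebrospinal fluid. These cells move ions and water towards the ventricle, seal the blood side from the fluid side with tight junctions, carry vitamins and hormones across, and secrete carrier proteins such as transthyretin, the product of Ttr. In the hindbrain the plexus lies in the fourth ventricle, directly under the cerebellum.

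The starts of the higher genes were examined for short DNA motifs. These genes are high in the same libraries by selection, and shared regulation was not tested. Of 60 higher genes with a symbol that is not a predicted name and a mean of at least 2 CPM, 44 had a promoter in RefSeq (GRCm38.p6), 51 promoters in all, each 250 bases before to 50 after a start. The motif TAATCC, which OTX homeodomain proteins bind, stood on either strand in 3 of the 51 (5.88%), in Abca4, Ace and Mfrp, against 7.06% of all 32851 promoters. GTTGCC, part of the RFX site, stood in 7 (13.7%, against 12.5% of all), and TGTTTAC, bound by forkhead proteins, in 3 (5.88%, against 3.65%). No motif overlapped another in the printed windows. The 150 bases before the start are printed for Kl, one of the 4 choroid markers of the rule, and for 3 of the genes with the largest differences, 5′ to 3′ on the gene's strand. These 3 were not taken in order of difference. For each gene the first start with a motif was printed, where there was one, so the windows do not show how common the motifs are. Where capitals occur they mark a motif or its reverse complement, 134 bases before the start in Mfrp (GGATTA), 111 in Aqp1 (GTTGCC) and 109 in Kcne2 (GGCAAC), and the Kl window holds none of these letters. A match or its absence describes the letters alone.
Kl: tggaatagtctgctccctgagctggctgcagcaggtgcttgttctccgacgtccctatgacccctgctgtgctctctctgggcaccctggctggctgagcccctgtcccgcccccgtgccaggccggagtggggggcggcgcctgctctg
Mfrp: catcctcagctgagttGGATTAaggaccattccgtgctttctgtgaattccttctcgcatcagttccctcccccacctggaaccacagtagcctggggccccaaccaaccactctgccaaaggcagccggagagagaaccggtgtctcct
Aqp1: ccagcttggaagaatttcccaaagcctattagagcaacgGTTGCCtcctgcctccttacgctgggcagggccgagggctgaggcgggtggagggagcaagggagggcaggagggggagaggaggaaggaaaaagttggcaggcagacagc
Kcne2: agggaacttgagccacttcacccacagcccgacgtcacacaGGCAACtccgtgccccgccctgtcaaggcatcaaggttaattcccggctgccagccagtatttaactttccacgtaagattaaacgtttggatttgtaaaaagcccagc
The windows lie at chr5:150952457-150952606 for Kl, chr9:44101620-44101769 for Mfrp, chr6:55336149-55336298 for Aqp1 and chr16:92292239-92292388 for Kcne2, all on the plus strand of GRCm38. The counts were made on GRCm39, and no position of that build is used.

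The 4 markers of the rule separated the classes together. Ttr was at 7.64, 4156, 24.96 and 12.4 CPM in saline knockout 1 to 4 and at 1.63, 2167, 2631 and 12.0 CPM in treated knockout 1 to 4. No knockout library lay between 24.96 and 2167 CPM. Folr1, the folate receptor that loads folate into cerebrospinal fluid, was at 0.0521, 32.9, 0.436 and 0.177 CPM in the saline and at 0.620, 19.5, 23.2 and 0.260 CPM in the treated knockout. Kl, which encodes the co-receptor klotho, was at 3.86, 81.8, 1.92 and 1.79 CPM in the saline and at 1.52, 63.8, 57.5 and 1.48 CPM in the treated knockout. Enpp2, which encodes the lysophosphatidic acid producing enzyme autotaxin, was at 164, 1792, 157 and 170 CPM in the saline and at 146, 1224, 1221 and 117 CPM in the treated knockout. Each marker set the same 3 libraries apart from the same 5. Enpp2 is also made by oligodendrocytes, and it was at 117 to 170 CPM in the low-Ttr libraries. The low-Ttr libraries were not free of these transcripts, since Ttr had 2547 counts over the 5. In FVB 1 to 4 Ttr was at 65.3, 23.6, 7.97 and 12.1 CPM, so no FVB library reached the threshold. With bulk samples, fewer cells of a type and less RNA per cell cannot be told apart.

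**Figure D1:**
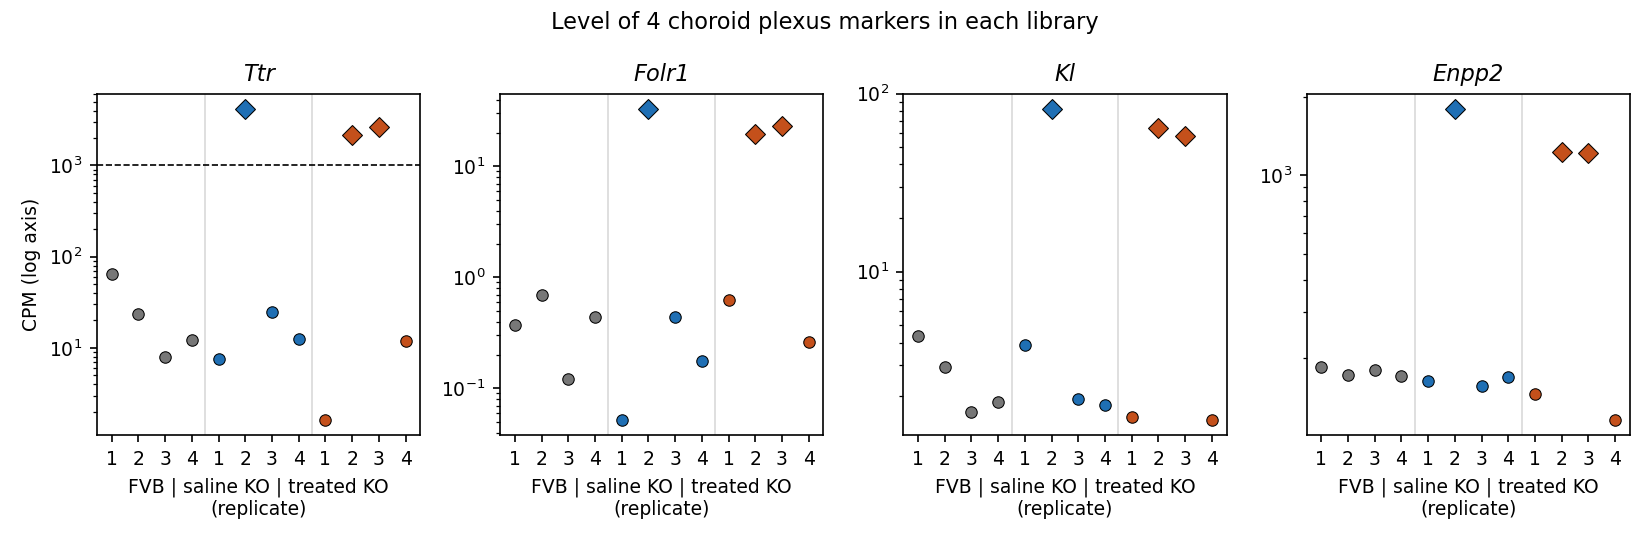
CPM on a log axis of Ttr, Folr1, Kl and Enpp2 in each of the 12 libraries (grey FVB, blue saline knockout, orange treated knockout; diamonds mark the 3 high-Ttr libraries, and the dashed line is the 1000 CPM threshold). Saline knockout 2 and treated knockout 2 and 3 stand above every other library in all 4 panels.

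Depth and general library measures overlapped between the classes. The high-Ttr libraries held 39.4 to 46.0 M counts and 26767 to 27135 detected genes, and the low-Ttr libraries 38.7 to 56.4 M counts and 25992 to 27565 genes. Mitochondrially encoded genes took 4.66 to 5.14% and 4.20 to 5.62% of counts. Fmr1, the targeted gene, was at 27.9 to 36.7 CPM in all 8 knockout libraries and at 85.5 to 108 CPM in FVB. A floor of 3 counts over the 5 low-Ttr libraries corresponds to 0.0130 CPM and covers counting error only.

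Of 20042 genes fitted, 198 were higher (0.988%) and 29 lower (0.145%) in the high-Ttr libraries. At any size of difference 588 genes lay above all 5 low-Ttr libraries (2.93%) and 366 below all 5 (1.83%). Since the rule used this contrast, these shares are a description only. Among the higher genes 97 differed by a log2 of at least 2, 60 by at least 3 and 26 by at least 5, whereas 8 of the lower genes reached 2. Of the higher genes 116 had at least 10 counts in 6 of 8 libraries, a filter that 3 libraries alone cannot meet, and of the lower genes 9 did. Just inside the threshold, among genes of at least 2 CPM, were Prdm16 (1.07), Rsph1 (1.06) and Matn2 (1.02), and just outside it Ctsc (1.00), Sgms2 (0.99) and Slit2 (0.98), all above all 5 low-Ttr libraries. The median difference of all genes was -0.0007.

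The 6 lists of choroid plexus genes held 39 of the higher genes and none of the lower ones. All lists, choroid and other, came from textbook knowledge but were chosen with earlier results of these data known. The contrast between them is therefore a description only. The choroid lists also include Ttr, which set the classes, and the other markers Folr1, Kl and Enpp2. Of their 79 genes tested 76 had a positive difference, with a median of 1.25. The 17 lists of other cell types, regions and responses had 236 genes tested, of which 3 were higher (Rsph1, Dpep1 and Steap4), 1 lower (Hba-a1) and 119 positive, with a median of 0.004.

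**Figure D2:**
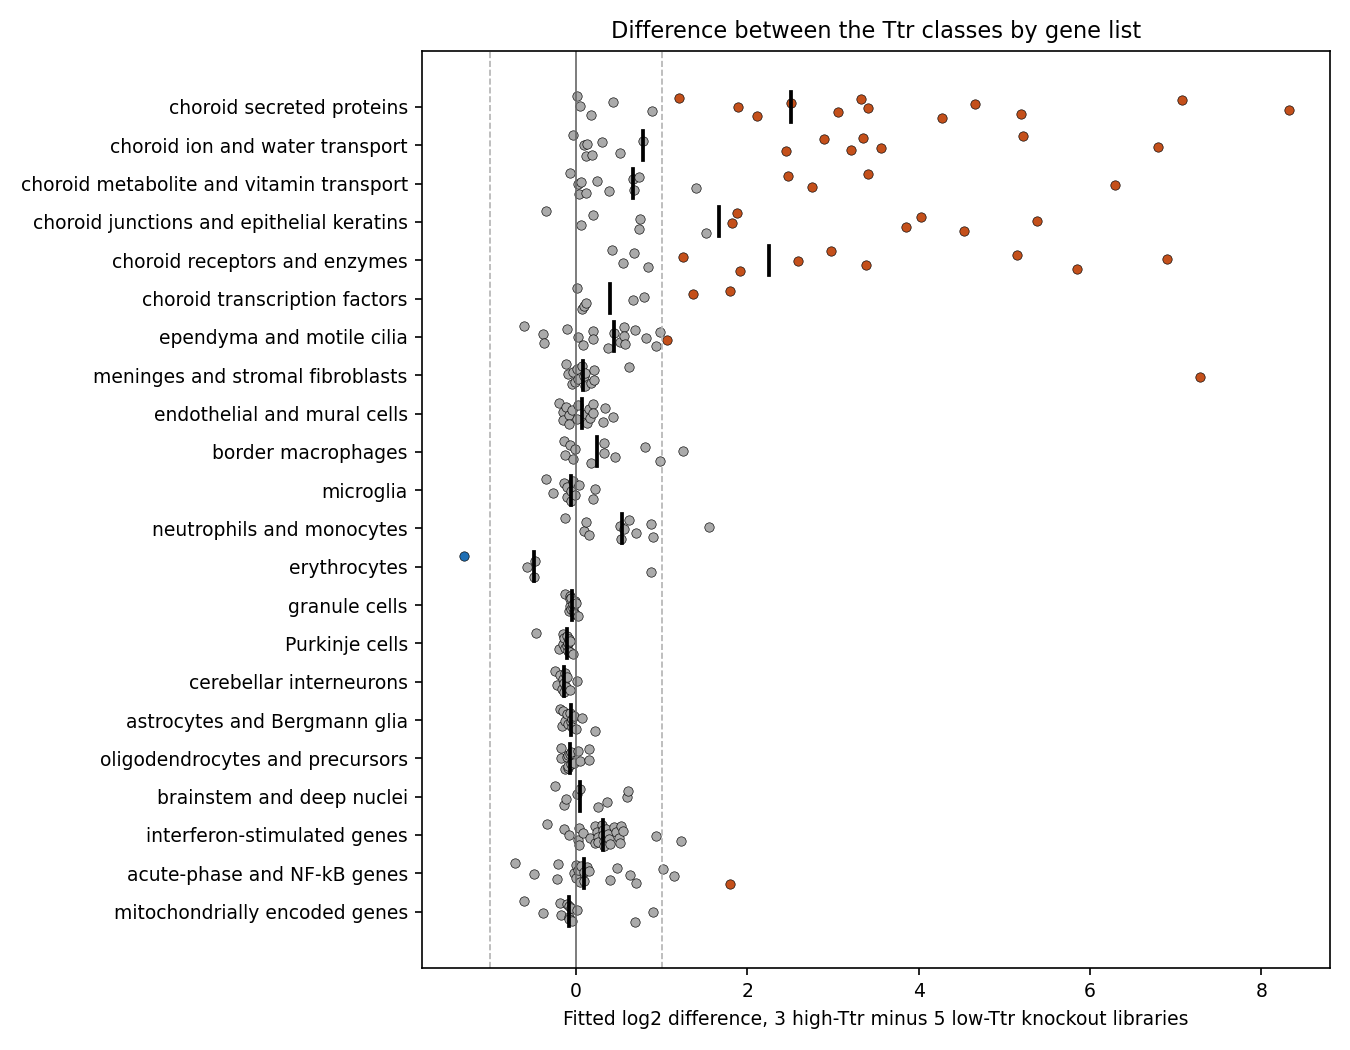
Fitted log2 difference between the Ttr classes for each tested gene of 22 gene lists (points; orange higher, blue lower, grey neither; black bars the list medians; dashed lines at 1 and -1). The orange points gather in the 6 choroid lists, whose medians run from 0.39 to 2.51. The medians of the granule, Purkinje, interneuron and glial lists are all below 0. Those of the neutrophil and monocyte list (0.54) and the ependymal list (0.44) exceed the lowest choroid median, that of the transcription factors.

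Secreted proteins made up the list with the largest median, 2.51, with 12 of 17 genes higher. Sostdc1, which encodes an antagonist of BMP and Wnt signalling, was at 13.2, 6.49 and 5.94 CPM in saline knockout 2, treated knockout 2 and treated knockout 3 and at 0 to 0.157 CPM in the low-Ttr libraries, a difference of 7.08 (SE 0.307). F5, coagulation factor V, was at 28.5, 24.2 and 21.2 CPM in the same 3 libraries and at 0.542 to 1.77 CPM in the low-Ttr ones (4.66, SE 0.184). These 2 genes and the 3 secreted or membrane markers Ttr (8.32, SE 0.754), Kl (5.19, SE 0.226) and Enpp2 (3.32, SE 0.0796) differed without overlap. Lbp, which encodes the lipopolysaccharide binding protein, was at 29.3, 27.2 and 28.2 CPM against 3.02 to 7.09 CPM. Col8a1, a short-chain collagen, differed by 3.06 (SE 0.224). Igfbp2, an insulin-like growth factor binding protein, was at 91.5, 71.4 and 67.3 CPM against 16.4 to 32.0 CPM. Not every secreted protein known from the plexus followed the classes, since Cp (0.17), Rarres2 (0.05) and Pltp (0.02) lay under 1.

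Ion and water transport genes split into 2 sets. Of 15 genes tested 7 were higher and the median was 0.78. Kcne2, a potassium channel subunit, was at 22.4, 15.1 and 12.5 CPM in the high-Ttr and at 0 to 0.432 CPM in the low-Ttr libraries (6.79, SE 0.466). Aqp1, the water channel of the ventricular face, was at 20.3, 6.23 and 7.73 CPM against 0.130 to 0.513 CPM (5.22, SE 0.244). For both genes every high-Ttr library lay above every low-Ttr one. Clic6, a chloride channel family member, was at 66.3, 50.7 and 56.3 CPM against 3.03 to 7.46 CPM, and the bicarbonate cotransporter gene Slc4a5 at 34.4, 22.1 and 23.9 CPM against 2.00 to 3.51 CPM. The cation channel gene Trpv4 (3.21), the potassium channel gene Kcnj13 (2.90) and the carbonic anhydrase gene Car12 (2.46) completed the higher set. Car14, Slc4a2 and Slc12a2 lay above all 5 low-Ttr libraries by 0.78, 0.51 and 0.30. Atp1b1, a sodium pump subunit of neurons and glia as well, differed by -0.04.

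Of 15 metabolite and vitamin transport genes 4 were higher, with a list median of 0.67. They were Folr1 (6.29, SE 0.463), the metalloreductase gene Steap1 (3.41), the monocarboxylate carrier gene Slc16a8 (2.76) and the zinc carrier gene Slc39a4 (2.47). Steap1 was at 4.21, 3.51 and 3.38 CPM against 0.256 to 0.496 CPM. Slc16a8 was at 2.92, 1.52 and 1.74 CPM against 0.156 to 0.496 CPM. The organic anion carrier gene Slc22a8 (0.03) and the ascorbate carrier gene Slc23a2 (0.02) had differences near the median of all genes.

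Tight junction and keratin genes, which mark epithelium, had a median of 1.67 with 6 of 12 higher. Cldn1 was at 9.78, 5.27 and 6.67 CPM against 0.0651 to 0.339 CPM (5.38, SE 0.278), and Cldn2, which encodes a pore-forming claudin of leaky epithelia, at 18.5, 12.5 and 13.7 CPM against 0.904 to 1.38 CPM (3.85, SE 0.155). The simple epithelial keratin genes Krt18 (4.52) and Krt8 (4.02) and the genes Spint1 (1.88) and Tjp3 (1.82) were also higher. The general epithelial adhesion genes Epcam (-0.35) and Cdh1 (0.06) were not.

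Among receptors and enzymes 8 of 12 were higher, with a median of 2.25. Mfrp, a frizzled-related membrane protein gene, was at 17.7, 16.2 and 15.9 CPM against 0.0217 to 0.283 CPM (6.89, SE 0.369). Tmem72, a membrane protein gene, was at 33.8, 28.2 and 21.4 CPM against 0.282 to 0.718 CPM (5.85, SE 0.189). Prlr, the prolactin receptor gene, was at 9.65, 16.1 and 11.5 CPM against 0 to 0.564 CPM (5.15, SE 0.520). Among the high-Ttr libraries Prlr was highest in treated knockout 2. Wdr86 (3.39), Calml4 (2.98), Htr2c (2.59) and Ace (1.91) were among the other higher genes of this list. Htr2c encodes a serotonin receptor whose transcript neurons also carry, and it was at 2.52 to 4.64 CPM in the low-Ttr libraries.

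Transcription factors of the plexus differed less. Msx1 was at 11.8, 6.36 and 7.28 CPM against 1.77 to 3.26 CPM (1.79, SE 0.243) and Lmx1a, which specifies the roof plate from which the hindbrain plexus arises, at 4.16, 2.51 and 2.87 CPM against 0.521 to 2.11 CPM (1.37, SE 0.298). Otx2, which the plexus and cerebellar granule cells express, was at 27.2, 21.6 and 19.0 CPM against 11.2 to 15.7 CPM, above all 5 by 0.80. Foxj1, the ciliogenesis regulator, lay above all 5 by 0.67. Of 8 regional transcription factors (Hox genes of the hindbrain and genes of the forebrain) none passed the filter, and their summed level was 0.300 to 0.403 CPM in the high-Ttr and 0.130 to 0.337 CPM in the low-Ttr libraries.

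Genes outside the choroid lists made up the remaining 159 of the 198. Dlk1, which encodes a Notch ligand family member, was at 11.5, 2.51 and 6.83 CPM against 0.217 to 0.461 CPM (4.30, SE 0.379). Drc7, a component of the dynein regulatory complex of motile cilia, was at 12.3, 8.35 and 8.41 CPM against 0.886 to 2.02 CPM (2.88, SE 0.277). Abca4, a lipid transporter gene best known from photoreceptors, was at 17.2, 10.9 and 9.75 CPM against 1.41 to 2.30 CPM (2.73, SE 0.197). Tmprss11a had no count in the low-Ttr libraries and 1.79, 0.793 and 1.16 CPM in the high-Ttr ones, at least 95.9-fold higher against the floor over those 5 libraries. The insulin gene Ins2, another of 5 genes with no count there, was at 0.705, 0.407 and 0.479 CPM, at least 40.8-fold higher. Dpep1, which the fibroblast list holds, had 2 counts in the low-Ttr libraries, and its ratio of 200-fold has a 95% counting interval of 54.6 to 1658. Among the 198 were also genes of motile cilia, Efcab1 (2.10), Cfap61 (1.65), Iqub (1.16) and Spag16 (1.09), and genes of secreted Wnt-binding proteins, Sfrp5 (1.63) and Sfrp1 (1.21). Tmprss11a, Ins2 and these cilia and Wnt genes were chosen after their values were seen.

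Markers of cells that lie next to the plexus or within it were counted in the same libraries. Of 19 ependymal and ciliary genes tested 15 were positive, with a median of 0.44 and Rsph1 alone higher, and Tmem212 (-0.60), Ccdc153 (-0.38) and Dnah12 (-0.38) had negative point values without passing the rule. Their summed level was 71.2 to 76.1 CPM in the high-Ttr and 40.8 to 72.5 CPM in the low-Ttr libraries. Fibroblast genes apart from Dpep1 were not higher, with Col1a1 at 0.01 and Col1a2 at -0.02, a list median of 0.08 and summed levels of 1123 to 1412 CPM against 1022 to 1755 CPM. Endothelial and mural genes had a median of 0.07 (Plvap, a marker of fenestrated vessels, -0.04), with summed levels of 563 to 685 CPM against 552 to 753 CPM. Border macrophage genes had a median of 0.25, with Folr2 above all 5 by 0.98. Neutrophil and monocyte genes were positive in 11 of 12, with a median of 0.54, yet their sums of 8.14 to 20.3 CPM lay within the 7.16 to 40.04 CPM of the low-Ttr libraries. Every marker of these 5 lists had counts in both classes, and their part in the class differences was not tested.

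Cerebellar neuron markers had small negative differences, and so did glial ones. Medians were -0.06 for astrocytes and Bergmann glia (2 of 14 positive), -0.07 for oligodendrocytes and precursors (4 of 15) and -0.06 for microglia (3 of 12). Of all genes 1.83% lay below all 5 low-Ttr libraries. Of 14 Purkinje cell genes 0 were positive (median -0.10, and -0.04 with the replicate number as a block), with Pvalb and Slc1a6 below all 5. Of 12 interneuron genes 1 was positive (median -0.14), with Slc32a1 below all 5, and of 14 granule cell genes 2 were (median -0.05). Pvalb, a calcium-binding protein gene, was at 690, 704 and 726 CPM in the high-Ttr and at 774 to 795 CPM in the low-Ttr libraries. The summed Purkinje levels were 7400 to 8006 CPM and 7837 to 9556 CPM, which overlap. In the 3 high-Ttr libraries 11 of the 29 lower genes were also below all 4 FVB libraries. Hba-a1, an alpha-globin gene of red cells, was the only lower gene with a mean of at least 2 CPM, at 18.0, 11.4 and 28.4 CPM against 34.0 to 72.9 CPM (-1.31, SE 0.422). In FVB 1 to 4 Hba-a1 was at 18.2, 234, 55.5 and 48.4 CPM, which overlaps the high-Ttr values. Its near-identical copy Hba-a2 had a difference of 0.88, and whether reads were split between the copies was not tested. Their summed level was 20.7, 13.5 and 30.00 CPM in saline knockout 2, treated knockout 2 and treated knockout 3 and 34.2 to 78.2 CPM in the low-Ttr libraries, which does not overlap. Hbb-bs (-0.49), Hbb-bt (-0.57) and Alas2 (-0.48) overlapped between the classes.

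Interferon-stimulated genes, which poly(I:C) induces, were followed within each treatment because both classes contain treated libraries. Of 30 genes 27 had a positive class difference, with a median of 0.31, and none was higher. Genes that poly(I:C) induces can hardly meet that rule, since saline knockout 2 would have to exceed treated knockout 1 and 4. The absence of higher genes in this list is therefore a description only. Bst2, which encodes the antiviral protein tetherin, was at 9.68 CPM in saline knockout 2 against 2.05 to 4.07 CPM in the other saline knockout libraries, and at 43.3 and 54.4 CPM in treated knockout 2 and 3 against 28.8 and 23.4 CPM in treated knockout 1 and 4. It was thus higher without overlap within each treatment, as were 255 genes at a difference of at least 1 (1.27%), a rule added after seeing the data. Its difference was 1.23 (SE 0.251). Among acute-phase genes Steap4, a metalloreductase gene that cytokines induce, was at 2.14, 2.44 and 4.81 CPM against 0.209 to 2.00 CPM (1.79, SE 0.388). The part of plexus RNA in these differences was not tested.

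The 3 high-Ttr libraries did not carry the same excess of each gene. Excess was taken as a library's CPM minus the mean of the low-Ttr libraries of its treatment. Summed over the 198 higher genes, with the mean of all 5 low-Ttr libraries subtracted, it was 6827 CPM in saline knockout 2, 3921 CPM in treated knockout 2 and 4405 CPM in treated knockout 3. The 4 markers of the rule made up 86.4, 84.4 and 85.5% of these sums, and without them the sums were 928, 611 and 637 CPM. Over the 60 genes the median excess in treated knockout 2 was 64.4% of that in saline knockout 2 (quartiles 51.1 and 79.1%), and in treated knockout 3 69.7% (quartiles 55.9 and 82.1%). Saline knockout 2 was the highest of the 3 in 49 of the 60, treated knockout 2 in 3 and treated knockout 3 in 8. Enpp2 lay near these medians, with 67.1 and 66.9%. Aqp1 (30.1 and 37.6%) and Htr2c (29.5 and 22.7%) were low in both treated libraries, and Dlk1 was lower in treated knockout 2 than in treated knockout 3 (19.6 against 58.6%). Prlr (167 and 119%), Trpv4 (112 and 136%) and Wdr86 (108 and 142%) exceeded saline knockout 2 in both. With 1 saline library of this kind these ratios have no replicate check on the saline side.

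**Figure D3:**
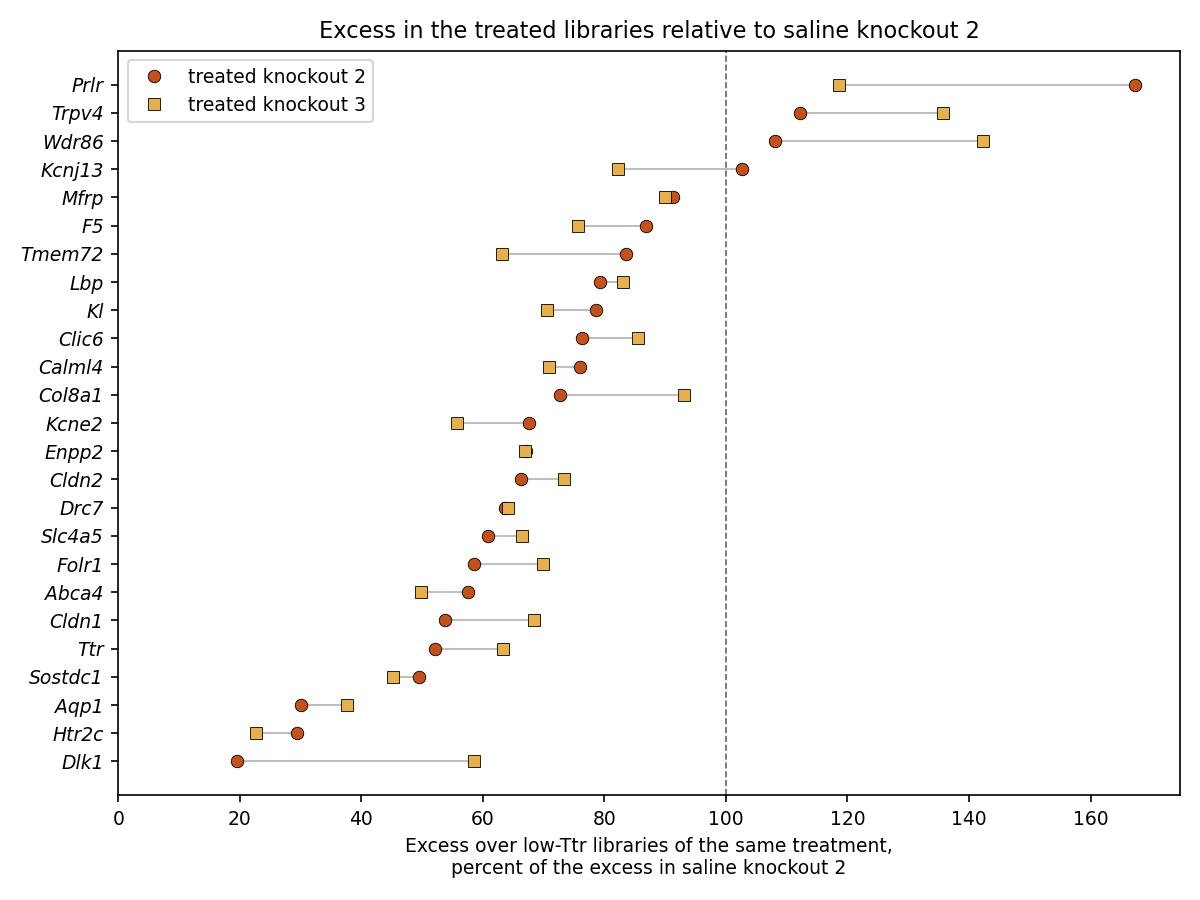
Excess of the 25 genes with the largest differences in treated knockout 2 (circles) and treated knockout 3 (squares), as a percentage of the excess in saline knockout 2 (dashed line at 100). Htr2c and Aqp1 lie far below the dashed line in both libraries, and Prlr, Trpv4 and Wdr86 above it in both.

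Of the 198 higher genes, 158 were above all 4 FVB libraries in the 3 high-Ttr ones and 40 overlapped FVB, although no FVB library passed the Ttr threshold. The genes were selected for high values in these same 3 libraries, which favours such a result. The share over all genes was not computed, so this count and the next are a description only. Of the 60 genes with a mean of at least 2 CPM, 57 were above all 4 FVB libraries in the 3 high-Ttr ones, and the exceptions were Lmx1a, Tent5c and Perm1. Perm1, a muscle-type metabolic regulator gene, was at 4.38, 4.21, 5.52 and 4.34 CPM in FVB, at 2.29, 5.70 and 5.97 CPM in the high-Ttr and at 1.23 to 2.15 CPM in the low-Ttr libraries. Its high-Ttr values span the FVB range while the low-Ttr ones lie below it. Ostn, which encodes the secreted peptide osteocrin, was at 0.588 to 1.11 CPM in FVB, 0.227 to 0.578 CPM in the high-Ttr and 0 to 0.156 CPM in the low-Ttr libraries. It is named because of these values.

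The labelled comparisons can be tested, since their groups come from the labels. They were made over 19166 genes with edgeR (quasi-likelihood F-test, Benjamini-Hochberg adjusted p), in which 148 of the 198 higher and 20 of the 29 lower genes were tested. Between treated and saline knockout 550 genes were called at an adjusted p under 0.05 (2.87%, with 1.81% up and 1.06% down), and between saline knockout and FVB 294 (1.53%, with 0.814% up and 0.72% down). None of the 148 or of the 20 was called in either comparison. These genes were chosen for a split inside both knockout groups, which widens their spread there and makes a call less likely. The absence of calls is therefore a description only. At an unadjusted p under 0.05 by edgeR there were 2 and 8 of the 148, and the share of all genes at that level was not computed. DESeq2 called 1 (Perm1) and 3 (Perm1, Ostn and 1 predicted gene) of the 168, against 986 and 636 of all 19166 genes. By limma-voom 0 and 0 of the 168 were called, against 572 and 225 of all genes. Each group holds high-Ttr libraries in another number (0 of 4 FVB, 1 of 4 saline knockout, 2 of 4 treated knockout). Ttr itself had a log2 fold change of 0.20 (SE 2.24, adjusted p = 0.982) between treated and saline knockout and of 5.28 (SE 2.71, adjusted p = 0.508) between saline knockout and FVB.

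The higher genes were selected for being high in saline knockout 2 and treated knockout 2 and 3, so the selection itself moves their medians when one of these is left out or the class is fitted. Their median log2 fold change between saline knockout and FVB was 0.64, against 0.003 for all genes, and it was -0.16 without saline knockout 2 and 0.98, 1.02 and 0.99 without saline knockout 1, 3 and 4. With the Ttr class as a covariate it was -0.10. Between treated and saline knockout the median was 0.23, against -0.002 for all genes. It was 0.98 without saline knockout 2, -0.08 without treated knockout 2, -0.09 without treated knockout 3 and -0.20 with the class as a covariate. With 1 low-Ttr library left out it was -0.0076, -0.0044 and 0.02 without saline knockout 1, 3 and 4 and 0.50 and 0.54 without treated knockout 1 and 4. Each median is over the higher genes that its fit tested. These medians are a description. The comparisons share the saline knockout libraries.

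**Figure D4:**
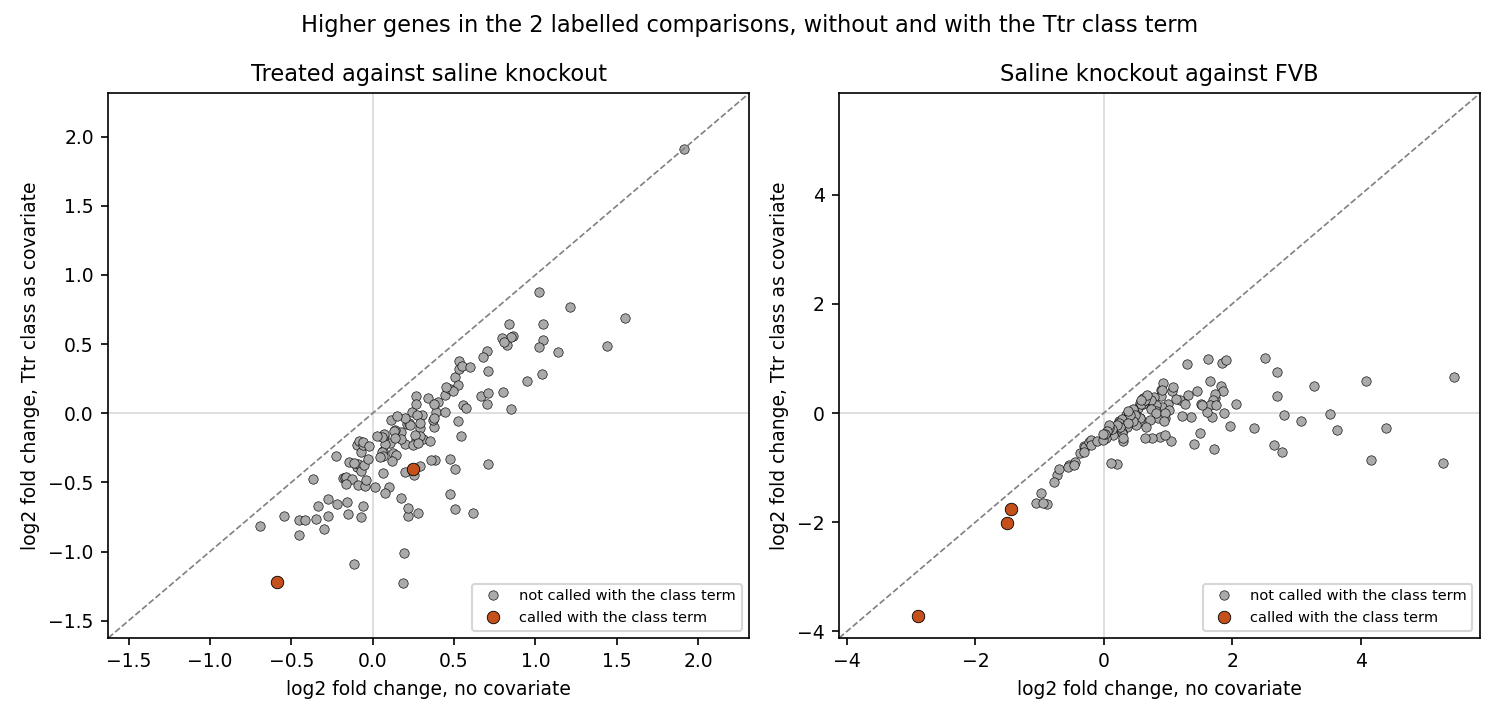
log2 fold changes of the 148 tested higher genes without a covariate (x axis) and with the Ttr class as a covariate (y axis), for treated against saline knockout (left) and saline knockout against FVB (right); orange marks genes called with the class term, and the dashed line is equality. In the right panel the genes with the largest fold changes on the x axis lie near 0 on the y axis, and Perm1 and Ostn lie low on both.

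With the Ttr class as a covariate, the comparison of treated and saline knockout called 446 genes, of which 420 were among the 550. Aqp1 (-1.22, SE 0.264, adjusted p = 0.0153) and Enpp2 (-0.40, SE 0.0729, adjusted p = 0.00295) were then called by edgeR as lower in the treated knockout. Both were chosen by the class contrast, and the class term gives all 3 high-Ttr libraries the same shift. Their excess in treated knockout 2 and 3 was below that in saline knockout 2 (30.1 and 37.6% for Aqp1, 67.1 and 66.9% for Enpp2). In this fit an unequal excess and a change with treatment cannot be told apart. Over all fits run, the adjusted p ran from 0.0153 to 0.999 for Aqp1 and from 0.00295 to 0.998 for Enpp2. Neither was called without the 3 high-Ttr libraries (Aqp1 -0.78, adjusted p = 0.899, and Enpp2 -0.32, adjusted p = 0.212). In the 5 low-Ttr libraries Enpp2 was at 164, 157 and 170 CPM under saline and at 146 and 117 CPM under poly(I:C). These values do not overlap, which is easily met with so few libraries. The share of all genes without such overlap was not computed, so this is a description only. Lbp was called by edgeR only without the 3 high-Ttr libraries (0.96, SE 0.206, adjusted p = 0.0271, against 0.80, SE 0.831, adjusted p = 0.721 with all libraries), at 3.02 to 3.96 CPM under saline and 7.09 and 6.31 CPM under poly(I:C). In the comparison of saline knockout with FVB the class term gave calls of Perm1 (-1.76, SE 0.215, adjusted p = 1.36e-04) and Ostn (-3.72, SE 0.600, adjusted p = 0.00226) by edgeR, both lower in the saline knockout. Both are higher genes, chosen partly for low values in the low-Ttr libraries. With the class term the selection itself lowers such genes against FVB, and these adjusted p-values do not allow for it. Over all fits run, the adjusted p ran from 1.36e-04 to 0.173 for Perm1 and from 0.00226 to 0.157 for Ostn.

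Among choroid list genes with class differences near 0, Slc22a8, Cp and Pltp changed with treatment; they were chosen after their values were seen. By edgeR, Slc22a8 was lower in the treated knockout by all libraries (-1.29, SE 0.152, adjusted p = 6.20e-05) and by the fit without the 3 high-Ttr libraries (-1.29, adjusted p = 0.00534). Cp, ceruloplasmin, was higher (1.05, SE 0.128, adjusted p = 8.91e-05, and 0.89, adjusted p = 0.00673, without them). Pltp, which encodes a phospholipid transfer protein, was lower (-0.34, SE 0.0717, adjusted p = 0.0108), and this call ended without the 3 libraries (adjusted p = 0.230). Slc22a8 and Cp are also expressed outside the plexus in brain.

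Interferon-stimulated genes rose with poly(I:C) in each of these fits. All 30 interferon-stimulated genes tested were called higher in the treated knockout by edgeR, with a median of 3.23, and 30 with the class term and 28 without the 3 libraries (medians 3.10 and 3.22). Of 21 acute-phase genes 10, 10 and 4 were called higher. Of all genes, the first 2 of these fits called 347 and 286 of 19166 higher, and the fit without the 3 libraries 179 of 19814. Bst2 differed by 3.03 (SE 0.505, adjusted p = 0.0118) without and by 2.85 (SE 0.259, adjusted p = 6.75e-05) with the class term. Lgals3bp, a secreted glycoprotein gene that interferon induces, was called with the class term (1.31, SE 0.206, adjusted p = 0.00523) and not without it (1.52, SE 0.452, adjusted p = 0.133). Among genes called only with the class term were also Angptl2 (-0.92, adjusted p = 0.00171) and Alpl (-0.94, adjusted p = 0.0316). Plin4 (adjusted p = 0.0380 and 0.0666), Map3k6 (0.0414 and 0.0838) and H2-T23 (0.0299 and 0.0642) were called by edgeR only without it, with log2 fold changes of 3.14, 2.66 and 2.03 without it and of 3.16, 2.61 and 1.88 with it.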

How the data were processed

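Bulk RNA was sequenced from 12 cerebellum libraries, 4 each of FVB, saline knockout and treated knockout. The deposited table holds raw counts per gene, made by the authors with Trim Galore, HISAT2 and featureCounts on GRCm39, per the submitters' processing notes. The annotation, strand setting and read length used are not given in these sources. Of 57010 genes 52029 matched a symbol, and these hold 99.4% of all counts.

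CPM values were computed from the counts with TMM factors over the 12 libraries. Genes were filtered with filterByExpr (minimum count 10, total 15). The class differences were fitted with edgeR 4.0.16 in R 4.3.3 on the 8 knockout libraries, with Ttr class and treatment as terms. The labelled comparisons were fitted on all 12 libraries with edgeR's robust quasi-likelihood test and Benjamini-Hochberg adjustment, called at 0.05. The SE of a log2 value is its size divided by the square root of the F statistic. Alternatives were DESeq2 1.42.0, limma-voom 3.58.1, other scaling, other filters, the Ttr class or log2 Ttr as a covariate, the replicate number as a block, and leaving libraries out. The members and gene lists were chosen with earlier results of these data known.

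Named genes are the 4 markers and the 25 higher and 10 lower genes with the largest differences among genes with a mean of at least 2 CPM (only 1 lower gene reached it). Named too are up to 4 genes of each list by size of difference, and the 8 with the largest fold whose treatment call appeared or disappeared with the class term. Other genes named in the text are list members or were picked after their values were seen. Genes with a predicted name are counted only.

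The steps were tested on simulated counts. For treated against saline knockout (18868 genes), 69% of 100 genes changed 2-fold and 47% of 100 changed 1.5-fold were recovered, and 6.45% of calls were false. For saline knockout against FVB (18866 genes) these were 57%, 54% and 4.31%. For the Ttr classes (19069 genes), 98.5% of 200 genes changed 4-fold were counted, together with 56 unchanged genes.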

Additional observations from a re-analysis of the deposited data

Results flagged for a closer look

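Within each labelled group of 4 libraries, the levels of the markers, Fmr1 and the summed lists were searched for a library whose gap to the nearest other was too large a part of the group's range by Dixon's critical value. Of 84 such groups 13 had one, and chance flags about 1 in 20. In 7 of the 13 the isolated library was saline knockout 2, which the rule chose for its Ttr and which is the only high-Ttr library of its group, so these 7 are a description and 6 remain to be read against chance. It stood apart from the other saline knockout libraries in Ttr (4156 CPM against 7.64 to 24.96), Folr1 (32.9 against 0.0521 to 0.436), Kl (81.8 against 1.79 to 3.86) and Enpp2 (1792 against 157 to 170). It also stood apart in the summed choroid secreted proteins (6477 CPM against 385 to 395), junction and keratin genes (146 against 73.2 to 81.6) and receptors and enzymes (430 against 173 to 187). In the treated knockout, where 2 of 4 libraries were high in Ttr, no single library could be isolated in this way for these markers.

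The other 6 concerned other lists. Summed ependymal and ciliary genes in treated knockout 4 were at 50.5 CPM, and the remaining treated libraries were at 71.2 to 74.4 CPM. Summed neutrophil and monocyte genes were at 17.2 CPM in treated knockout 3 against 7.16 to 8.14 CPM. Summed granule cell genes were at 9249 CPM in treated knockout 4 against 8764 to 8801 CPM. Mitochondrially encoded genes summed to 39206 CPM in saline knockout 3 against 47056 to 47569 CPM. Among FVB libraries, microglial genes were at 179 CPM in FVB 2 against 154 to 157 CPM, and brainstem and deep nuclei genes at 194 CPM in FVB 1 against 229 to 235 CPM.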

How the results depend on the processing

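Against 198 higher and 29 lower genes, the counts were 405 and 107 without a filter on low counts, 116 and 9 with 10 counts in 6 of 8 libraries, 487 and 180 in the poly(I:C) libraries alone, 719 and 567 in the saline libraries alone, and 97 and 8 at a log2 difference of at least 2. Lower genes numbered 18 without the treatment covariate, 12 with the FVB libraries and 49 without overlap within each treatment, an alternative chosen after seeing the data. Leaving out 1 library gave 209 to 317 higher and 35 to 131 lower genes, both highest without saline knockout 2. Fewer libraries make it easier not to overlap.

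Treated against saline knockout gave 550 calls, 986 by DESeq2, 215 without the 3 high-Ttr libraries and 347 to 689 leaving out 1 library (347 without treated knockout 3). Members called numbered 0, and 1 by DESeq2, 2 with the class term, 1 with log2 Ttr, 1 without the 3 libraries and 0 to 2 leaving out 1. Saline knockout against FVB gave 294 calls, 636 by DESeq2, 506 without a filter and 156 to 300 leaving out 1 library (156 without FVB 3, 161 without FVB 4, 176 without FVB 1, 182 without saline knockout 2, 194 without FVB 2). Members called numbered 0, and 3 by DESeq2, 1 without a filter, 4 with the class term, 5 with log2 Ttr, 4 without the 3 libraries and 0 to 3 leaving out 1. The cause was not tested for any of these.

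Deviations of same-numbered libraries were weakly correlated (-0.12 to 0.26 and -0.10 to 0.09), and no pairing was used in the main fits. The highest value, 0.26, was for saline and treated knockout 2, both high in Ttr. So few pairs cannot settle whether the replicate numbers link libraries. With the replicate block the counts were 277 higher and 38 lower genes, 563 and 274 calls, and 3 members called between saline knockout and FVB. No value changed sign among those called. Of 1847 class differences of named genes under the alternatives 136 moved by more than the spread between libraries, as did 36 of 418 list medians, and of 920 fold changes between labelled groups 94 lost and 58 gained a call.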
